A study of Homo sapiens with 6 samples.

Results

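Satellite heterochromatin and the short arms of the acrocentric chromosomes were examined as 1180 regions of 100 kb, out of 30501 such regions on the T2T-CHM13v2.0 assembly, a gapless human genome sequence that includes these repeats. The large satellite blocks of chromosome 1 (128 to 142 Mb), chromosome 9 (49 to 76 Mb) and chromosome 16 (38 to 52 Mb) gave 550 regions. The short arms of chromosome 13 (0 to 15 Mb), chromosome 14 (0 to 10 Mb), chromosome 15 (0 to 16 Mb), chromosome 21 (0 to 10 Mb) and chromosome 22 (0 to 12 Mb) gave 630 regions. The limits of the blocks are positions and use no measured value, but they were proposed with earlier results of these data known. Each block was compared with a block of equal length on its own long arm that began 10 Mb beyond the upper end of the block. No repeat annotation or sequence of this assembly was used here, so the blocks were not checked against satellite arrays and no bases are shown.

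The blocks on the long arms next to the centromeres of chromosomes 1, 9 and 16 consist largely of classical satellites, short sequences repeated in tandem and packed into constitutive heterochromatin. The short arms of the acrocentric chromosomes carry further satellite arrays and the ribosomal RNA gene arrays around which nucleoli form. CENP-A is the histone H3 variant that marks the active centromere, where it normally sits on alpha satellite, and DNAJC9 is a heat shock co-chaperone that binds histones H3–H4.

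The assay was CUT&RUN, which uses an antibody to bring a nuclease to its target in chromatin, so that the DNA around the target is cut free and sequenced. The RPE1-Tet-GFP-CENP-A line served throughout, an hTERT-RPE1 derivative of retinal pigment epithelium whose GFP-CENP-A transgene is induced by DOX. Cells were transfected with siNeg, a negative control siRNA, or with siDNAJC9, an siRNA against DNAJC9, for 96 h in all, and every culture, controls included, received 1 µg/ml DOX for the last 48 h. For each siRNA, CENP-A was profiled in 2 libraries, numbered 1 and 3, and nonspecific IgG, which measures background release of DNA, in 1 library, numbered 2. The paper calls the CENP-A libraries biological replicates, while the sample labels number them without naming separate cultures, and the p-values given here measure only the spread between these libraries.

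Each library was represented by the peaks that the authors called in it, given as positions without height or read count. The depth behind a region could therefore not be read from the lists, and the levels of DNAJC9 and CENP-A themselves could not be checked in them. Peaks were placed in steps of 1 kb and the narrowest spanned 5 kb. The CENP-A lists covered 15234 kb (replicate 1) and 10902 kb (replicate 3) with siNeg, and 87697 kb (replicate 1) and 65416 kb (replicate 3) with siDNAJC9. The IgG lists covered 23778 kb with siNeg and 41396 kb with siDNAJC9. The lists come from bulk cells, in which fewer cells with CENP-A at a place and less CENP-A there per cell cannot be told apart.

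The blocks and short arms held 3.87% of the regions of the genome and a far smaller part of every list. Of the listed CENP-A length, 0.210% (replicate 1) and 0.211% (replicate 3) lay in them with siNeg, and 0.0593% (replicate 1) and 0.0734% (replicate 3) with siDNAJC9. The share was 0.458% in siNeg IgG and 0.686% in siDNAJC9 IgG. No list had a peak in 1128 of the 1180 regions (95.6%), against 468 of the 1180 long-arm regions (39.7%) and 44.6% of all regions outside the blocks.

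The satellite blocks of chromosomes 1, 9 and 16 had no CENP-A peak after DNAJC9 depletion. The length under peaks in these 550 regions was 5 kb in siNeg CENP-A replicate 1 and 0 kb in siNeg replicate 3, siDNAJC9 replicate 1 and siDNAJC9 replicate 3. On the equal lengths of the same long arms, replicate 1 had 12 kb with siNeg and 1389 kb with siDNAJC9, and replicate 3 had 6 kb with siNeg and 1123 kb with siDNAJC9. The long arms of siDNAJC9 thus lay far above those of siNeg, while the satellite blocks were empty in both siDNAJC9 libraries.

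The only CENP-A peak in the satellite blocks was chr1:128211001-128216000 in siNeg replicate 1, 211 kb inside the centromere-side end of the block. For each siDNAJC9 library, a count of 0 of 550 regions allows a share of up to 0.545% of regions with a peak by a floor of 3 counts, and up to 0.694% by the 95% Wilson interval, limits that cover counting error only. On the long arms 147 of 550 regions had a peak in siDNAJC9 replicate 1 (26.7%, 95% Wilson interval 23.2 to 30.6%) and 128 of 550 in siDNAJC9 replicate 3 (23.3%, 19.9 to 27.0%). Set against a floor of 3 peaks per library, the satellite blocks had at least 65.0-fold fewer peaks than the long arms in siDNAJC9 replicate 1 and at least 56.7-fold fewer in siDNAJC9 replicate 3.

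The emptiest block was that of chromosome 9, with no peak in any of the 6 lists. On its long arm, CENP-A replicates 1 and 3 had 12 and 0 kb with siNeg and 871 and 661 kb with siDNAJC9, while IgG had 248 kb with siNeg and 411 kb with siDNAJC9. On chromosome 1 the long-arm block held 226 and 252 kb in siDNAJC9 replicates 1 and 3, below the 270 kb of siDNAJC9 IgG and above the 143 kb of siNeg IgG. On chromosome 16 it held 292 and 210 kb, against 160 kb in siDNAJC9 IgG and 98 kb in siNeg IgG. The CENP-A peaks of siDNAJC9 thus reached 15 to 32.3 kb per Mb on these 3 long-arm blocks.

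IgG peaks did occur in the chromosome 1 and chromosome 16 blocks, and all of them lay close to the centromere-side end. On chromosome 1 they covered 10 kb in siNeg IgG and 18 kb in siDNAJC9 IgG, and the farthest began 742 kb inside the block. On chromosome 16 they covered 12 kb and 27 kb, and the farthest began 1062 kb inside. The rest of both blocks was free of peaks in all lists.

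**Figure D1:**
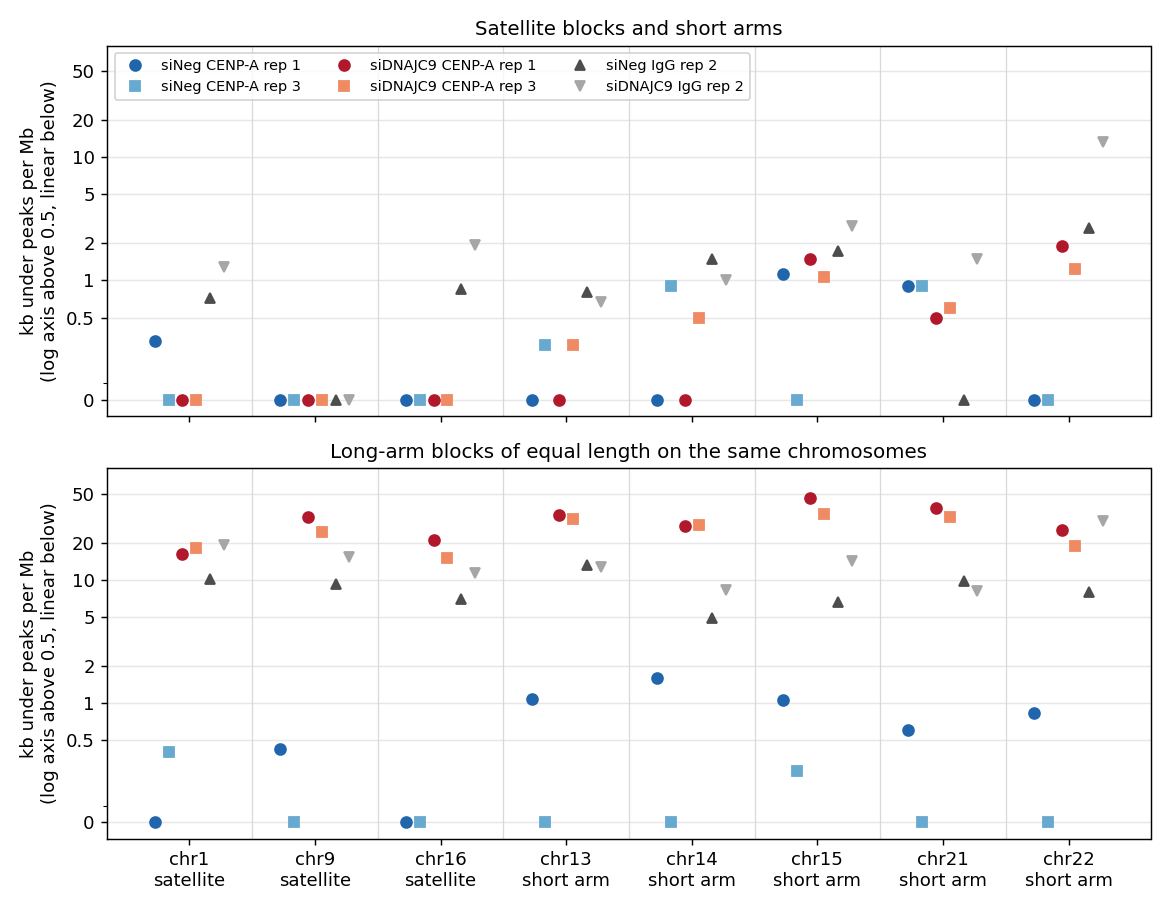
Length under peaks in kb per Mb (log axis above 0.5, linear below) in each of the 8 blocks (upper panel) and in the equal-length blocks of the same long arms (lower panel), with 1 point per library and chromosome. In the lower panel the siDNAJC9 CENP-A libraries lie between 15 and 46.4 kb per Mb, and in the upper panel no CENP-A library exceeds 1.92 kb per Mb.

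Counted up to the last listed peak of each chromosome that had a peak, the 6 longest peak-free stretches lay mostly in these blocks. Over all 6 lists together, the longest run without a peak was 28.1 Mb, at chr9:48806001-76907000, of which 27000 kb lay in the satellite block. The next were 13.993 Mb on chromosome 1 (chr1:128747001-142740000) and 13.14 Mb on chromosome 16 (chr16:39067001-52207000). The fourth was 8.405 Mb on the short arm of chromosome 15 (chr15:5545001-13950000), and the fifth and the sixth were 4.784 and 4.536 Mb on the short arm of chromosome 13. The longest run outside the blocks was 4.15 Mb on chromosome X, at rank 7. For comparison, the median run between peaks was 53 kb, and within the 8 long-arm blocks the longest stretch without a peak ranged from 0.746 to 0.921 Mb. Of 32 runs of at least 2 Mb, 16 reached into the blocks, and so did all 4 runs of at least 5 Mb.

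**Figure D2:**
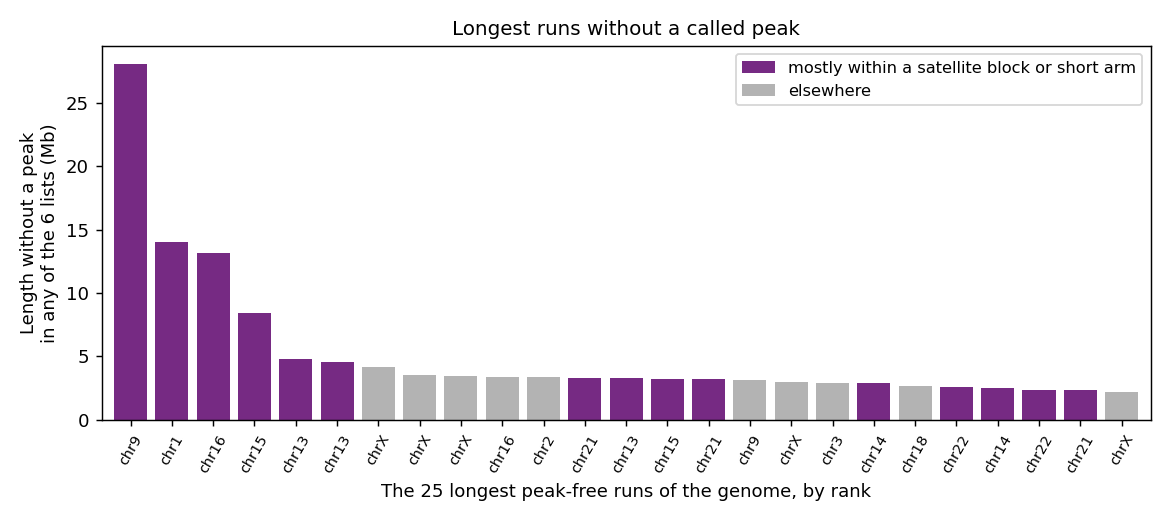
Length in Mb of the 25 longest runs of the genome without a peak in any of the 6 lists, by rank and labelled with the chromosome, purple where most of the run lies in a satellite block or short arm. The first 6 runs all lie mostly in these blocks, led by 28.1 Mb on chromosome 9, and the longest run elsewhere is 4.15 Mb. Runs were counted up to the last listed peak of each chromosome that had a peak.

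CENP-A peaks of siDNAJC9 began again at different distances beyond the satellite blocks. On chromosome 1 the first lay 2856 and 2819 kb beyond the upper end of the block in replicates 1 and 3, and on chromosome 9 it lay 3262 and 3267 kb beyond. On chromosome 16 the first peak came sooner, 614 and 467 kb beyond the block. IgG peaks resumed 740 kb (chromosome 1), 907 kb (chromosome 9) and 512 kb (chromosome 16) beyond the blocks in siDNAJC9 IgG, and 3152, 4829 and 207 kb beyond them in siNeg IgG.

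The acrocentric short arms held a few CENP-A peaks in every library. Their length under peaks was 27 and 23 kb in siNeg CENP-A replicates 1 and 3 (25 ± 2.83 kb, SD, n = 2), from 4 and 3 peaks. It was 52 and 48 kb in siDNAJC9 CENP-A replicates 1 and 3 (50 ± 2.83 kb, SD, n = 2), from 7 and 8 peaks. The groups did not overlap, and the mean was 2-fold higher with siDNAJC9, with 1.78- to 2.26-fold between single libraries. On the log2 scale with 5 kb added the difference was 0.87 and the exact two-sided permutation test over libraries gave p = 0.333, the smallest value that 2 against 2 libraries allow. With only peaks of at least 7 kb the difference was 0.24 and the groups overlapped, and without the 2 Mb nearest the centromere it was 1.71. Leaving out peaks that overlapped IgG peaks of the same siRNA gave 0.63. On the same arms the IgG lists also differed, with 87 kb in siNeg IgG and 239 kb in siDNAJC9 IgG. The part of background in the CENP-A difference was not tested.

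On the long arms of the same 5 chromosomes the difference between siRNAs was much larger. There the libraries held 65 and 5 kb with siNeg (35 ± 42.4 kb, SD, n = 2) and 2198 and 1837 kb with siDNAJC9 (2017.5 ± 255 kb, SD, n = 2), a 57.6-fold higher mean. Between single libraries the fold ran from 28.3 to 439.6, and its upper end rests on the 1 long-arm peak of siNeg replicate 3. In siDNAJC9 replicate 1, 203 of 630 long-arm regions had a peak (32.2%, 95% Wilson interval 28.7 to 36.0%), against 6 of 630 short-arm regions (0.952%, 0.437 to 2.06%). In siDNAJC9 replicate 3 the counts were 192 of 630 (30.5%, 27.0 to 34.2%) and 7 of 630 (1.11%, 0.539 to 2.28%). The intervals, which cover counting error only and take neighbouring regions as independent, were far apart in both libraries. With siNeg they overlapped, at 13 and 2 of 630 long-arm regions and 4 and 3 of 630 short-arm regions in replicates 1 and 3.

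**Figure D3:**
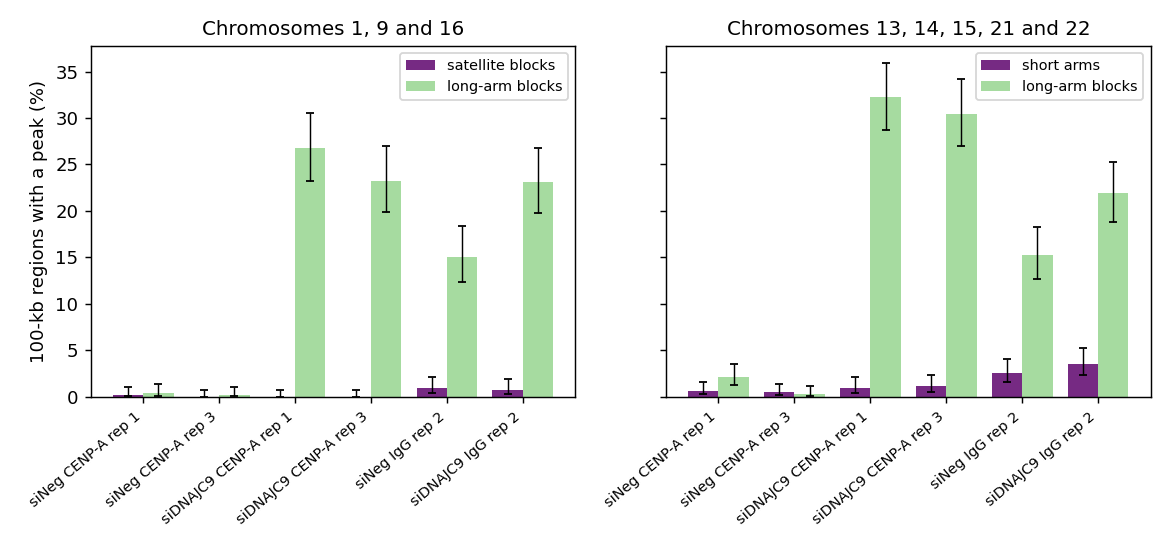
Percent of 100-kb regions with at least 1 peak in satellite blocks or short arms (purple) and in the equal-length long-arm blocks (green) for each library, with 95% Wilson intervals as error bars, which cover counting error only. In siDNAJC9 CENP-A replicate 1, 0.952% of short-arm regions and 32.2% of long-arm regions have a peak, and no satellite region has one in either siDNAJC9 CENP-A library.

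Every short arm lay below its own long arm in both siDNAJC9 CENP-A libraries. The short arm of chromosome 13 held 0 and 5 kb in siDNAJC9 replicates 1 and 3, and its long-arm block held 502 and 464 kb. Chromosome 14 held 0 and 5 kb on the short arm and 273 and 279 kb on the long arm. The short arms of both chromosomes were thus empty in siDNAJC9 replicate 1, and each carried 1 narrow peak in siDNAJC9 replicate 3.

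Chromosome 21 had 5 and 6 kb on the short arm in siDNAJC9 replicates 1 and 3, and 379 and 320 kb on the long arm. The most length was found on chromosome 15, with 24 and 17 kb on the short arm against 742 and 549 kb, and on chromosome 22, with 23 and 15 kb against 302 and 225 kb. The siDNAJC9 IgG list held 357 kb on that long-arm block of chromosome 22, more than either CENP-A list. Chromosome 15 alone gave 46.2% and 35.4% of the short-arm length of siDNAJC9 replicates 1 and 3. With siNeg, the short arm of chromosome 22 had no CENP-A peak and that of chromosome 15 had 18 and 0 kb in replicates 1 and 3.

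**Figure D4:**
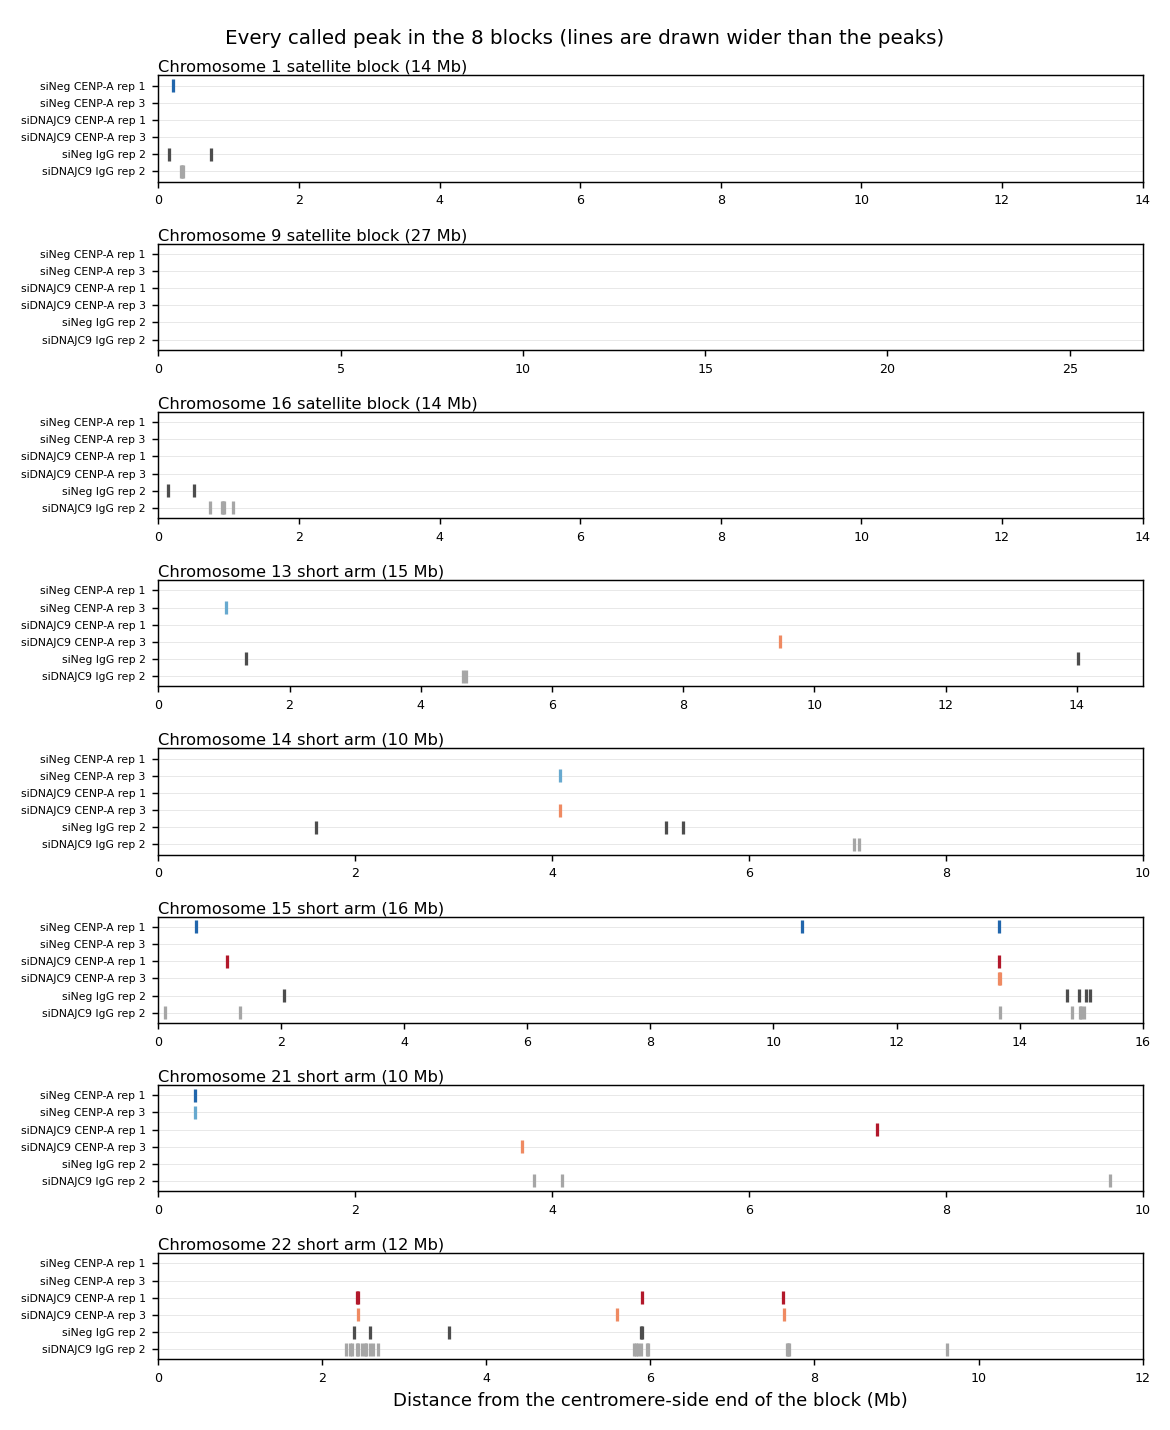
Every called peak in the 8 blocks, 1 row per library, against the distance in Mb from the centromere-side end of the block (0 is nearest the centromere, and lines are drawn wider than the peaks). Peaks are few in all CENP-A rows, the chromosome 9 block is empty, and the siDNAJC9 IgG row of chromosome 22 holds 21 of the 35 short-arm peaks of that library.

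The largest CENP-A peak of the short arms was on chromosome 15. It spanned 19 kb in siDNAJC9 replicate 1 (chr15:2316001-2335000), and siDNAJC9 replicate 3 had 2 peaks over the same place, chr15:2316001-2323000 and chr15:2325001-2335000. A 5-kb peak of siNeg replicate 1 lay inside it (chr15:2327001-2332000), and siNeg replicate 3 had none. In its 100-kb region the libraries held 5 and 0 kb with siNeg and 19 and 17 kb with siDNAJC9. A peak of siDNAJC9 IgG, chr15:2309001-2315000, ended 1 kb before it without overlapping it.

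Only 1 peak was the same in both siNeg CENP-A libraries. It was chr21:9624001-9633000, 367 kb from the centromere-side end of the short arm, and spanned 9 kb with identical ends in replicates 1 and 3. Neither siDNAJC9 library nor either IgG library had a peak in that region. On chromosome 14, siNeg replicate 3 (chr14:5917001-5926000) and siDNAJC9 replicate 3 (chr14:5918001-5923000) overlapped, and the nearest IgG peak of either siRNA lay 1071 kb away.

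Several siDNAJC9 CENP-A peaks of chromosome 22 lay over or near IgG peaks. Peaks chr22:9565001-9572000 and chr22:9581001-9586000 of replicate 1 and chr22:9566001-9571000 of replicate 3 overlapped siDNAJC9 IgG peaks at chr22:9563001-9571000 and chr22:9577001-9587000. Farther out, chr22:4381001-4387000 of replicate 1 and chr22:4366001-4371000 of replicate 3 fell in the same 100-kb region without overlapping each other, 43 and 28 kb from the nearest siDNAJC9 IgG peak. In replicate 1, chr22:6103001-6108000 overlapped a siNeg IgG peak at chr22:6099001-6108000.

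The remaining short-arm CENP-A peaks were each seen in 1 library. They were chr13:13974001-13979000 in siNeg replicate 3, chr15:5537001-5545000 and chr15:15394001-15399000 in siNeg replicate 1, chr15:14885001-14890000 and chr21:2695001-2700000 in siDNAJC9 replicate 1, and chr13:5517001-5522000, chr21:6305001-6311000 and chr22:6407001-6412000 in siDNAJC9 replicate 3. All spanned 5 to 8 kb.

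The 7 and 8 block peaks of siDNAJC9 replicates 1 and 3 were also described by width and by overlap between the libraries. The median width was 5 kb in the blocks in both siDNAJC9 libraries, and 7 and 6 kb on the long arms in replicates 1 and 3. Of the block peaks, 2 of 7 in replicate 1 and 3 of 8 in replicate 3 overlapped a peak of the other replicate (28.6% and 37.5%), against 44.3% of 479 and 50.6% of 423 on the long arms. These differences were not tested. Within 2 Mb of the centromere-side end lay 2 of 4 and 2 of 3 short-arm peaks of siNeg replicates 1 and 3, and 1 of 7 and 0 of 8 of siDNAJC9 replicates 1 and 3.

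To ask whether the difference between siRNAs was itself different in the blocks, the log2 ratio of block length to long-arm length, each with 5 kb added, was compared between the CENP-A libraries. For the satellite blocks this ratio was −0.77 and −1.14 in siNeg replicates 1 and 3, and −8.12 and −7.82 in siDNAJC9 replicates 1 and 3. The mean ratio was lower with siDNAJC9 by a log2 difference of −7.02 (exact two-sided permutation test, p = 0.333). Since the block length was 0 kb in both siDNAJC9 libraries, the size of this difference follows the length added, and it was −8.33 with 1 kb and −4.53 with 50 kb. For the short arms it was −1.13 and 1.49 with siNeg, and −5.27 and −5.12 with siDNAJC9, a difference of −5.37 (exact two-sided permutation test, p = 0.333). The groups did not overlap in either comparison, and no smaller p is possible with 2 against 2 libraries. The siNeg ratios rest on few long-arm peaks: 2 and 1 beside the satellite blocks, and 12 and 1 beside the short arms, in replicates 1 and 3.

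**Figure D5:**
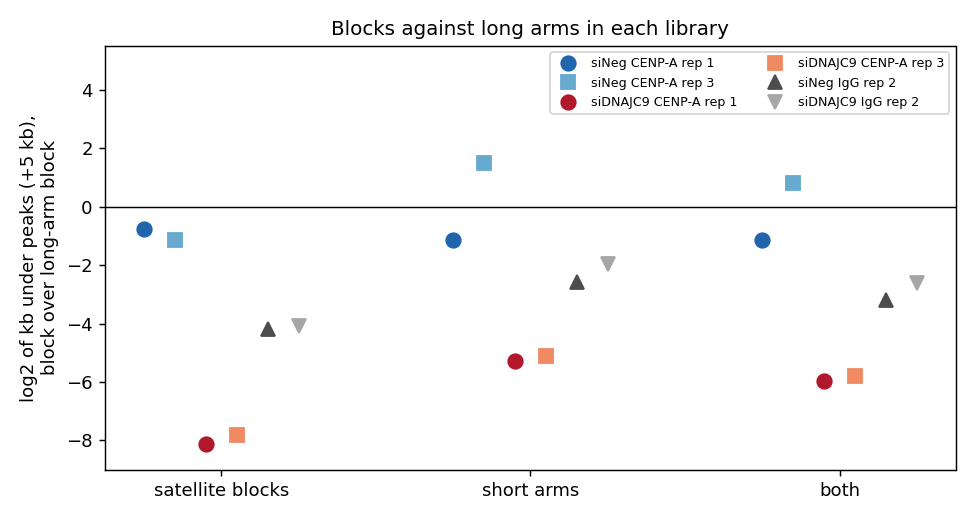
Log2 of the length under peaks in a block over that in the long-arm block, each with 5 kb added, for satellite blocks, short arms and both, with 1 point per library and a line at 0 for equal length. The siDNAJC9 CENP-A libraries lie lowest in all 3 columns, at −8.12 and −7.82 for the satellite blocks, and the IgG libraries lie between them and the siNeg CENP-A libraries.

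The IgG lists also had fewer peaks in the blocks than on the long arms. In the satellite blocks siNeg IgG had 22 kb and siDNAJC9 IgG 45 kb, against 489 and 841 kb on the long arms. On the short arms they had 87 and 239 kb, against 547 and 938 kb. Each IgG library thus had more length in the blocks than either CENP-A library of the same siRNA. Of the 239 kb of siDNAJC9 IgG on the short arms, 160 kb (66.9%) lay on chromosome 22, where its longest peak was chr22:9650001-9669000, with 19 kb. In siNeg IgG chromosome 22 gave 36.8% of the short-arm length.

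Over satellite blocks and short arms as a whole, the log2 ratio to the long arms was −3.19 in siNeg IgG and −2.63 in siDNAJC9 IgG. The siNeg CENP-A libraries lay above their IgG library, at −1.15 and 0.81 in replicates 1 and 3, and the siDNAJC9 CENP-A libraries lay below theirs, at −5.98 and −5.81. Over all 4 CENP-A and 2 IgG libraries the mean difference was −0.12 (exact two-sided permutation test, p = 1, where the smallest possible value is 0.133), an average of opposite differences with the 2 siRNAs. Of the regions, 41 had a peak of an IgG library and 15 a peak of a CENP-A library, and 4 had both. Over all regions of the genome, 3296 of the 10656 with a CENP-A peak also had an IgG peak. In the long-arm blocks these were 144 of 456, so the 4 of 15 is not read as particular to the blocks. Whether the same property of these blocks lowered the IgG and the CENP-A lists was not tested.

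Region by region, a limma fit over the genome tested the regions with a peak in at least 1 CENP-A library, which were 1 of 550 in the satellite blocks and 14 of 630 on the short arms. The satellite region did not pass (limma, adjusted p = 0.352). When checked on artificial lists the fit also called unchanged regions, and each region called here entered the fit only through the group in which it was high, so the calls are descriptions. On the short arms 2 of the 14 tested regions (14.3%) were called higher with siDNAJC9, against 39.2% of the 10656 regions tested genome-wide. Of the same 14 regions, 1 was called lower, against 1.19% genome-wide. With so few tested regions, no difference in these shares is claimed. The higher regions were chr22:4300001-4400000 (0 and 0 kb against 6 and 5 kb, log2 difference 2.70, SE 0.18, limma adjusted p = 0.00502) and chr22:9500001-9600000 (0 and 0 kb against 12 and 5 kb, 3.14, SE 0.50, limma adjusted p = 0.0275). The lower region was chr21:9600001-9700000 (9 and 9 kb against 0 and 0 kb, −3.32, SE 0.15, limma adjusted p = 0.0046). The chromosome 15 region with the 19-kb peak did not pass, at a log2 difference of 2.95, SE 1.11 and a limma adjusted p of 0.194. With only peaks of at least 7 kb it was called, at 4.25 and a limma adjusted p of 0.00268. That filter removes the 5-kb siNeg peak of the region, which then enters the fit only through siDNAJC9, so this call too is a description.

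Both called chromosome 22 regions also held siDNAJC9 IgG peaks, of 20 and 24 kb, and neither held a siNeg IgG peak. The part of IgG background in these calls was not tested. None of the 3 calls was kept with the replicate number as a block or when either siNeg library was left out, where no region of the genome passed. The call of chr22:9500001-9600000 was also lost with 5 kb added (limma adjusted p = 0.0762), with only peaks of at least 7 kb (0.356) and with all regions tested (0.119). With only peaks of at least 7 kb, chr22:4300001-4400000 had no CENP-A peak left and was not tested. On the long-arm blocks, 82 of 187 tested regions beside the satellite blocks and 117 of 269 beside the short arms were called higher and 0 were called lower by limma, with 0 lower also at an unadjusted p under 0.05. Of the 1180 long-arm regions, 452 had a siDNAJC9 CENP-A peak, 18 a siNeg CENP-A peak and 0 a peak of both siNeg libraries. A lower call was thus hardly possible there, and no conclusion is drawn from its absence. Counted without a test, a peak in both siDNAJC9 and in no siNeg CENP-A library was found in 2 of 1180 block regions and 210 of 1180 long-arm regions, against 14.5% of all regions of the genome.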

How the data were processed

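Per the study's methods, reads were trimmed with Cutadapt 4.0, aligned to T2T-CHM13v2.0 with bowtie2 2.4.5 and cleared of duplicates by Picard 2.27.3. Broad peaks came from GoPeaks with E. coli spike-in normalization through CARLISLE 2.3.0. The deposited lists hold only positions (chromosome, start, end) per peak, which the authors called in each library against a further IgG library of the same siRNA that was not analysed here. The spike-in factor, the control and the removal of duplicates all bear on which repeats are listed, and how reads matching several repeat copies were placed is not given in the sources used here.

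Summed kb under peaks, with 5 kb added on the log2 scale, were compared by exact two-sided permutation tests over libraries. Chromosome ends were the highest listed positions, and peaks overlapped when they shared at least 1 bp. For regions of 100 kb, log2(kb + 1) was fitted by limma 3.58.1 (R 4.3.3), with Benjamini-Hochberg adjustment over 10656 regions. Other steps used Python 3.11.15 with pandas 2.3.3, numpy 2.4.6 and scipy 1.17.1. Alternatives varied peak width, the added length, block limits, the long-arm block, IgG overlap, scaling, region size and replicates. The named places follow a rule: every block, the short-arm regions with the most siDNAJC9 CENP-A length or with peaks of both siNeg libraries, and the longest peak-free runs. Other single peaks were picked with their values in view. The blocks and the lists of regions were chosen with earlier results of these data known.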

Additional observations from a re-analysis of the deposited data

Results flagged for a closer look

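Taken over satellite blocks and short arms, CENP-A and IgG differed in opposite directions under the siRNAs. The log2 ratio of block to long-arm length was higher in CENP-A than in IgG by 2.04 in siNeg replicate 1 and by 4.0 in siNeg replicate 3. The CENP-A minus IgG difference was −3.35 in siDNAJC9 replicate 1 and −3.18 in siDNAJC9 replicate 3. Both libraries of each siRNA moved the same way, each against the single IgG library of its siRNA, and the difference between the siRNAs was not tested. The siNeg CENP-A values rest on 14 and 2 long-arm peaks in replicates 1 and 3. Without chromosome 22, a choice made after the data were seen, the mean difference with siDNAJC9 was −2.92.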

How the results depend on the processing

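The exact permutation tests could not pass the threshold under any alternative, so for them only a change of direction was counted, and 2 values reversed. Changes of size without a change of direction were not counted for these tests. Among the main results, the 5 values that moved were all counts of short-arm regions called by limma. Outside them, 6 values moved, all alternatives of the CENP-A minus IgG difference with siDNAJC9. They moved by at least the SD between its libraries and kept their direction. The comparison of CENP-A with IgG (−0.12) reversed when a siDNAJC9 CENP-A library was left out, to 0.86 for replicate 1 and 0.80 for replicate 3. It ranged from −1.40 to 0.86 when 1 CENP-A library was left out, and neither IgG library was left out. The count of short-arm regions called by limma (3) was 0 with the replicate block and between 0 and 6 with 1 CENP-A library left out: 0 without either siNeg library and 6 without either siDNAJC9 library. Genome-wide, the higher calls were 0 with the replicate block. Without either siDNAJC9 library, only 1 library was left in that group, and most tested regions of the genome were called higher. The 6 calls are therefore not read as a result about the short arms. The region chr14:5900001-6000000, at −0.37, ranged from −2.03 to 1.29 with 1 library left out and reversed to 1.29 when that was siNeg replicate 3 and to 0.92 when it was siDNAJC9 replicate 1. The ratio of short arms to long arms differed between siRNAs by −7.23 to −4.07 over all alternatives, and that of the satellite blocks by −8.33 to −4.53. With the replicate block the differences were −0.50 (satellite blocks), 0.88 (short arms), −7.02 and −5.37 (against long arms). The labels do not say that a number marks a shared culture, and the deviations of same-numbered libraries (correlation −0.0176 over 10656 regions) show little, since only 1068 of these regions had a siNeg peak. Of the satellite blocks alone, peaks of at least 7 kb, blocks without the 2 Mb nearest the centromere, and leaving out siNeg replicate 1 gave no value and left no region to test, because no CENP-A peak was left. Under its alternatives the CENP-A minus IgG difference ranged from 2.04 to 4.0 with siNeg and from −4.25 to −2.60 with siDNAJC9. The lists give no depth, and a region without a peak in them is not shown to lack CENP-A.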
